A study of Homo sapiens with 12 samples.

Results

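The genes described here are 9 writers and readers of histone H3 lysine 9 (H3K9) methylation, a chosen list rather than all of them. They are the methyltransferases SUV39H1, SUV39H2, EHMT1, EHMT2, SETDB1 and SETDB2, and CBX1, CBX3 and CBX5, which encode the HP1 proteins. All 9 were present among the 54127 gene identifiers counted, and all 9 were among the 14501 genes with enough reads to be tested. The family was chosen because SUV39H1 fell steeply after CHKA knockdown, so the values of SUV39H1 are given as a description with no test, and the other 8 genes entered by family alone.

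RNA was sequenced from C4-2 cells, a human prostate cancer epithelial line derived from LNCaP that grows without androgen supplementation. One group of 6 samples (siCHKA) received a 50 nM pool of siRNAs against CHKA, which encodes choline kinase alpha, the enzyme that starts phosphatidylcholine synthesis. The other 6 samples (siNT) received the same concentration of a nontargeting pool. Both groups were reverse transfected with Lipofectamine RNAiMAX and grown in RPMI with 10% serum, and the comparison asks how the loss of CHKA changed the transcriptome. The legends of the study call the replicates biological, in one place all 6 and in another triplicates, and neither the legends nor the labels say which samples came from separate cultures. The SDs and p-values treat the 6 samples of a group as independent, and the p-values are too small if some of them share a culture. A single siRNA pool was used for each group, so effects of the pool and of CHKA loss cannot be told apart.

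Methylation of H3K9 marks silenced chromatin. SUV39H1 and SUV39H2 place the trimethyl mark mainly at pericentromeric heterochromatin, EHMT1 (GLP) and EHMT2 (G9a) act as a pair that places the mono- and dimethyl marks in euchromatin, and SETDB1 trimethylates H3K9 at retroelements and zinc finger gene clusters. The HP1 proteins alpha, beta and gamma (CBX5, CBX1 and CBX3) bind the methylated lysine through a chromodomain and bind partner proteins, SUV39H1 among them, through a chromoshadow domain.

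CHKA itself stood at 1.91 to 4.67 counts per 1000000 reads (CPM, scaled by TMM) in the siCHKA samples and at 36.7 to 43.3 CPM in the siNT samples, which leaves 6.76% of the siNT mean. Between 10685184 and 24246055 reads fell on genes per sample, and 3 counts corresponded to 0.124 to 0.281 CPM. After knockdown 30.1% of all tested genes were called lower and 32.1% higher, 62.2% in all (edgeR's quasi-likelihood test, Benjamini-Hochberg adjusted p below 0.05), with a median log2 fold change of 0.03, so a call alone sets no gene apart here. The siCHKA samples formed 2 sets, replicates 1, 3 and 5 and replicates 2, 4 and 6: counts of 2 samples from the same set differed by a chi-square of 2.39 to 9.5 per degree of freedom, and those of 2 samples from different sets by 12.5 to 24.9. The siNT samples were less even in another way, with 2.51 to 17.7 within replicates 1 to 3 or 4 to 6 and 8.61 to 30.9 across. The labels do not say what the sets are, and whether they relate to the triplicates was not tested. All 9 prostate epithelial markers examined were detected (KLK3 among them), with 7 lower and 2 higher in siCHKA. Their summed level was 3941 to 4960 CPM in siCHKA and 5081 to 6562 in siNT. KLK3 held the largest part (2220 ± 521 CPM in siCHKA and 3252 ± 340 in siNT, mean ± SD). Of 7 markers of other cell types found in the files, CD3E and DES had no read in any sample and PTPRC was near 0. COL3A1 was also too low to be tested, at 0.189 ± 0.111 CPM in siCHKA and 0.416 ± 0.179 in siNT. CD68, COL1A1 and VWF passed the filter, with 2 called higher and 1 lower. The sum of the 7 was 29.1 to 36.7 CPM in siCHKA and 18.0 to 26.1 in siNT, most of it from COL1A1, and its part in the results below was not tested.

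Stretches of the 3′ UTRs of SUV39H1 and CBX5 are shown first. Both genes carry the 7-base word GCCAGAT once in the 3′ UTR of their longest coding transcript, a word that had been picked out because genes carrying it were lower on average in these same samples. The stretches below are from GRCh38, 5′ to 3′ on the transcribed strand, with the word in capitals. Each lies toward the end of the UTR, SUV39H1 at chrX:48708856-48708882 (plus strand) and CBX5 at chr12:54231232-54231258 (minus strand).
SUV39H1 3′ UTR, word at base 1296 of 1440: gctatcagatGCCAGATctatgtgtct
CBX5 3′ UTR, word at base 10507 of 10813: tcactttgtaGCCAGATttctgaatgg
The other 7 genes held neither GCCAGAT nor the word TGCCCTT, which had been picked out in the same way, and no gene of the 9 held TGCCCTT. Over the 12139 tested genes with a 3′ UTR in the annotation, GCCAGAT was found in 8.82%. No share or fold change given for the words here or below was matched for UTR length. A long UTR, such as the 10813 bases of CBX5, has more room for any word. The 1071 genes that held it had a median log2 fold change of -0.18, and 47.9% of them were called lower, against 0.02 and 32.3% without it. For TGCCCTT the genes that held it had a median of -0.11, with 42.9% called lower. Since the words were picked from these data, these shares are a description, and a match is no evidence of a site that is used.

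Upstream sequence is shown for the same pair of genes, the methyltransferase and the HP1 gene with the lowest fold change of their families. The stretches are from RefSeq (GRCh38.p14) in the direction of transcription, cover only bases that no annotated exon occupies, and have the CCAAT box, the motif bound by NF-Y, in capitals. SUV39H1 is shown at chrX:48696484-48696733 (plus strand), which ends at the base before the start at 48696734. RefSeq holds another start of SUV39H1 at 48695554, the first base of the annotated gene, and the window before it, chrX:48695304-48695553, holds no CCAAT; the printed window was chosen because it holds the box. CBX5 is shown at chr12:54280134-54280192 (minus strand), the whole gap of 59 bases between CBX5 and the divergent gene HNRNPA1, and its capitals are the box read on the other strand (ATTGG).
SUV39H1 upstream: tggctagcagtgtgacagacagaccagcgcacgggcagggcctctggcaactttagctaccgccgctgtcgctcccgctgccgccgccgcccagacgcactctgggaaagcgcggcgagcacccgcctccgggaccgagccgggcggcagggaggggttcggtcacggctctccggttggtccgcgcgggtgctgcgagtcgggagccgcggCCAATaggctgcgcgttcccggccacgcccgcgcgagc
CBX5 upstream: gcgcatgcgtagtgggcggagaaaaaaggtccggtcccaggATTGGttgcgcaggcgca
In windows of 250 bases before each RefSeq start, read on both strands, CCAAT was found in 32% of 35116 promoters. Among the 13 windows of the 9 genes it was found in 5, which belonged to SUV39H1, SETDB2 and CBX5. The windows before the CBX5 starts at 54259545 and 54259586 overlap and hold the same box, so that box is counted more than once. The E2F letters GCGGGAA (5.52% of promoters) and the cell-cycle homology letters TTTGAA (13.3%) were in none of the 13 windows. No match says only that these letters are not in the window.

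SUV39H1 was the gene with the lowest fold change of the family. Its transcript (ENSG00000101945, chrX:48695554-48709016, plus strand, GRCh38) stood at 2.74, 3.23 and 3.72 CPM (lowest, median and highest of 6) in siCHKA. In siNT the values were 19.9, 21.4 and 24.4 CPM. The groups did not come near each other, and the counts behind them were 34 to 76 reads in siCHKA and 204 to 486 in siNT, well above the floor of 3 counts. The siCHKA mean of 3.23 ± 0.338 CPM was 14.9% of the siNT mean of 21.7 ± 1.54 (SD, n = 6 each), a log2 fold change of -2.73 (SE 0.08). Only 9 tested genes had a lower log2 fold change, and 4 of these were among the 9509 genes with a siNT mean of at least 10 CPM. The mean of SUV39H1 in replicates 1, 3 and 5 was 1 times that in 2, 4 and 6, with overlapping ranges. For 6 of the other 8 genes the ranges of these sets did not overlap, beside 47.5% of all tested genes, and nothing is read from that count. An antisense long noncoding RNA shares 685 exonic bases with SUV39H1, and its mean was 0.064 CPM in siCHKA and 0 in siNT.

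SUV39H2, the paralog that places the same mark, also fell, by less. Its transcript (ENSG00000152455, chr10:14878820-14904315, plus strand) stood at 26.2, 29.0 and 34.1 CPM in siCHKA (lowest, median, highest). In siNT it stood at 47.1, 53.6 and 55.9 CPM. The groups did not overlap, and the siCHKA mean of 29.4 ± 2.90 CPM was 56.1% of the siNT mean of 52.4 ± 3.97. The log2 fold change was -0.83 (SE 0.07, edgeR adjusted p = 1.77e-08). Its neighbour DCLRE1C, which shares 159 exonic bases with it on the other strand, changed by -0.27 (log2). Within a sample, SUV39H1 made up 8.81% to 12.4% of the reads per kilobase of the SUV39H pair in siCHKA and 29.7% to 32.7% in siNT. SUV39H2 was thus the larger part of the pair in both groups, and more so after knockdown. This shift rests in part on SUV39H1, which was chosen for its fall.

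The other methyltransferases moved little. EHMT1 (ENSG00000181090, chr9:137618992-137870016, plus strand) stood at 85.2, 94.3 and 109 CPM in siCHKA and at 80.1, 86.4 and 106 CPM in siNT, with overlapping groups and a log2 fold change of 0.09 (SE 0.08, edgeR adjusted p = 0.348). Its value depended on the siCHKA set used: 0.21 (adjusted p = 0.026) from replicates 1, 3 and 5 and -0.05 (adjusted p = 0.57) from replicates 2, 4 and 6. EHMT2 (ENSG00000204371, chr6:31879759-31897698, minus strand), the partner of EHMT1, stood at 73.2, 76.4 and 87.3 CPM in siCHKA and at 77.0, 79.6 and 83.1 CPM in siNT. The siNT range lay inside the siCHKA range, and the log2 fold change was -0.02 (SE 0.05, edgeR adjusted p = 0.763), with the sign changing to 0.06 when siCHKA replicates 2, 4 and 6 were left out and to 0.01 when at least 10 counts were required in every sample.

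SETDB1 (ENSG00000143379, chr1:150926263-150964744, plus strand) was the only gene of the 9 called higher. It stood at 49.4, 50.9 and 52.6 CPM in siCHKA and at 43.7, 45.8 and 50.1 CPM in siNT, so the groups overlapped. The log2 fold change was 0.14 (SE 0.05, edgeR adjusted p = 0.0203), a mean of 50.9 ± 1.38 against 46.4 ± 2.85 CPM. The call was lost in 7 of 16 alternatives, among them leaving out replicate 2 (adjusted p = 0.0928), 3 (0.0585) or 4 (0.0762). SETDB1 shares 948 exonic bases with CERS2 on the other strand, a gene at 254 CPM in siNT and 207 in siCHKA, and whether the counting used strand is not given in the sources used here. SETDB2 (ENSG00000136169, chr13:49444274-49495003, plus strand), the less studied relative of SETDB1, stood at 18.9, 23.1 and 25.7 CPM in siCHKA and at 22.6, 23.8 and 27.3 CPM in siNT, with overlapping groups, a log2 fold change of -0.10 (SE 0.08) and an edgeR adjusted p of 0.249.

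**Figure D1:**
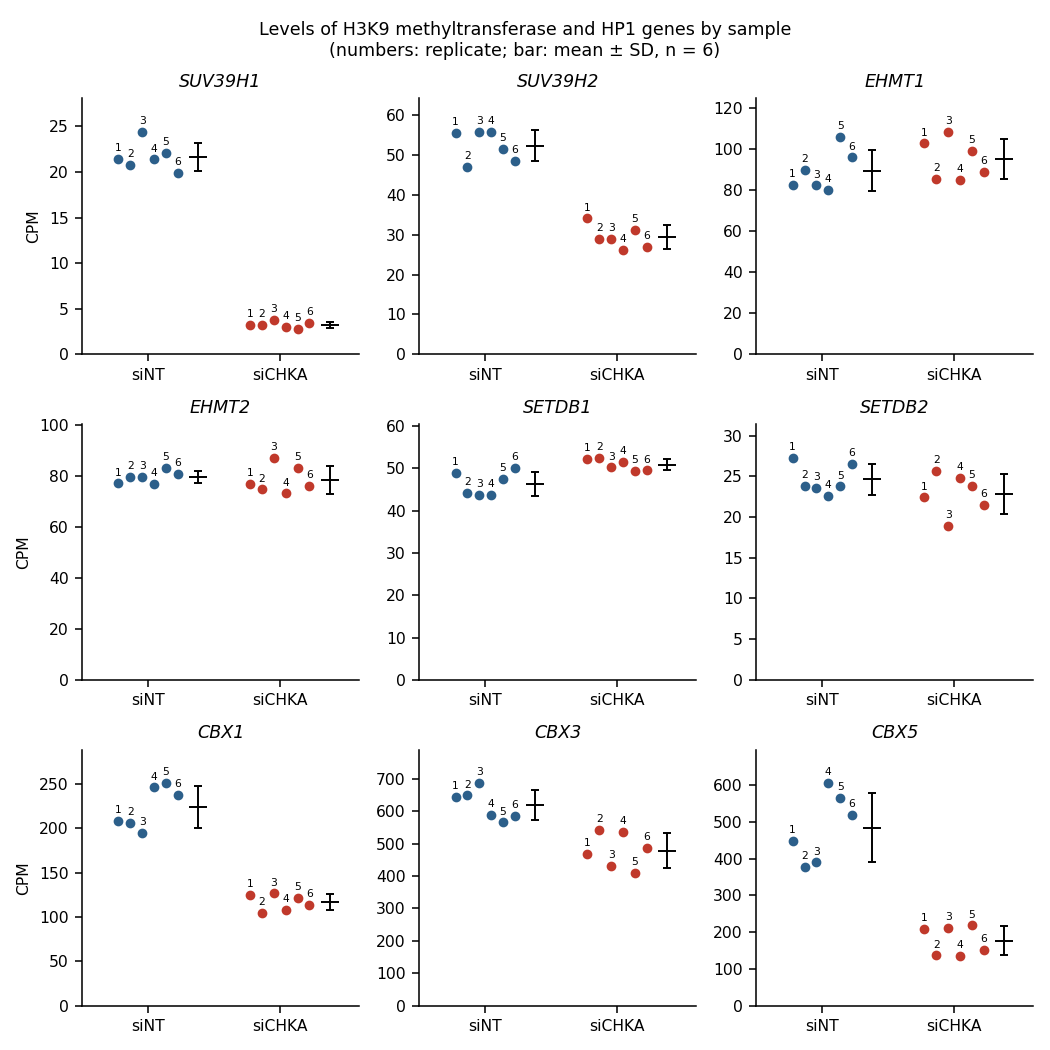
CPM of each of the 9 genes in the 6 siNT samples (blue) and the 6 siCHKA samples (red), on linear axes that start at 0. Numbers are replicate numbers and the black bars are the mean ± SD; the groups are apart for SUV39H1, SUV39H2, CBX1, CBX3 and CBX5 and overlap for EHMT1, EHMT2, SETDB1 and SETDB2.

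All 3 HP1 genes fell, to different extents. CBX5, which encodes HP1 alpha (ENSG00000094916, chr12:54230942-54280133, minus strand), stood at 135, 179 and 218 CPM in siCHKA (lowest, median, highest). In siNT it stood at 377, 483 and 605 CPM. Every siCHKA sample was below every siNT sample, although both groups were wide: siCHKA replicates 1, 3 and 5 held 1.51 times the level of 2, 4 and 6, and siNT replicates 4 to 6 held 1.39 times the level of 1 to 3. The siCHKA mean of 177 ± 39.7 CPM was 36.5% of the siNT mean of 484 ± 93.6, a log2 fold change of -1.45 (SE 0.14, edgeR adjusted p = 1.67e-07). It was -1.78 without siCHKA replicates 1, 3 and 5 and -1.18 without replicates 2, 4 and 6, and it passed the threshold in both. The same siCHKA sets differed in the summed level of the prostate epithelial markers. It was 3941 to 4027 CPM in replicates 1, 3 and 5 and 4874 to 4960 in 2, 4 and 6. KLK3 held the largest part of that sum, and the markers were not compared individually between the sets. The summed level of 15 proliferation genes differed less (1570 to 1587 and 1512 to 1523 CPM). The part of both sums in the CBX5 values was not tested. A microRNA hairpin that lies in an exon of CBX5 has no identifier among those counted.

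CBX1, which encodes HP1 beta (ENSG00000108468, chr17:48070052-48101478, minus strand), stood at 105, 118 and 127 CPM in siCHKA. In siNT it stood at 195, 223 and 251 CPM. The groups did not overlap, and the siCHKA mean of 117 ± 9.08 CPM was 52.1% of the siNT mean of 224 ± 23.7. The log2 fold change was -0.94 (SE 0.07, edgeR adjusted p = 5.50e-09).

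CBX3, which encodes HP1 gamma, the HP1 protein also found at transcribed genes (ENSG00000122565, chr7:26201162-26213607, plus strand), had the most reads and the smallest fall of the 3. It stood at 410, 477 and 542 CPM in siCHKA and at 566, 617 and 687 CPM in siNT. The groups did not overlap, but the highest siCHKA sample and the lowest siNT sample were close. The siCHKA mean of 479 ± 54.0 CPM was 77.2% of the siNT mean of 620 ± 46.7, a log2 fold change of -0.37 (SE 0.07, edgeR adjusted p = 3.10e-04). In both groups the sets of replicates with more CBX5 had less CBX3: the ratio of the CBX3 means was 0.836 for siCHKA replicates 1, 3 and 5 over 2, 4 and 6 and 0.879 for siNT replicates 4 to 6 over 1 to 3. Ranges of the siCHKA sets were apart in 47.5% of all tested genes, and the share for the siNT sets was not computed. Nothing is read from the opposite directions of the 2 genes. CBX3 shares 368 exonic bases with HNRNPA2B1, its neighbour on the other strand, which changed by -0.70 (log2). The annotation names 5 processed copies of CBX1, 9 of CBX3 and 1 of CBX5 elsewhere in the genome, none of which passed the filter (at most 0.599 CPM). Reads that aligned equally well to a gene and a copy were left out by the counting, so the HP1 genes are measured less surely where a copy is near-identical.

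Without SUV39H1, 4 of the 8 genes were called lower and 1 higher, beside 30.1% and 32.1% of all tested genes, and their median log2 fold change was -0.24. For the 5 other methyltransferases the counts were 1 lower and 1 higher with a median of -0.02, and for the 3 HP1 genes 3 lower with a median of -0.94. SUV39H2, CBX1, CBX3 and CBX5 also had siCHKA ranges wholly below siNT, a pattern found in 21.5% of all tested genes (siCHKA wholly above siNT in 19.1%, and in none of the 9). With so few genes and so common a direction, nothing is read from these counts about the family as a whole.

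Levels between genes were compared as CPM per kilobase of exon. In siNT the HP1 genes stood highest, with CBX3 at 128 ± 9.7, CBX1 at 73.6 ± 7.8 and CBX5 at 32.2 ± 6.2 CPM per kilobase. SUV39H2 followed at 14.7 ± 1.1 and EHMT2 at 10.9 ± 0.32, and SUV39H1 at 6.70 ± 0.48 overlapped SETDB1 at 6.29 ± 0.39. EHMT1 at 4.04 ± 0.45 and SETDB2 at 3.71 ± 0.28 were last and overlapped each other. In siCHKA SUV39H1 was last of the 9 at 0.998 ± 0.10 CPM per kilobase, below the lowest sample of SETDB2, and CBX5 at 11.8 ± 2.6 overlapped EHMT2 at 10.8 ± 0.75. The order among the methyltransferases depends on the length used: per kilobase of the longest coding transcript, EHMT1 stood at 17.6 in siNT, beside 17.1 for SUV39H2 and 19.3 for EHMT2. The order CBX3, CBX1, CBX5 and the last place of SUV39H1 in siCHKA were the same with both lengths.

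Summed over the 3 HP1 genes, 149 ± 6.42 CPM per kilobase were found in siCHKA and 234 ± 5.44 in siNT, and the ranges of 139 to 155 and 227 to 243 were far apart. The sum over the 6 methyltransferases was 34.7 ± 1.48 in siCHKA and 46.3 ± 1.29 in siNT. It includes SUV39H1, which was chosen for its fall, so its difference is a description. Per kilobase, SUV39H1 was at 6.70 in siNT and 0.998 in siCHKA, and SUV39H2 at 14.7 and 8.26. In the same order EHMT1 was at 4.04 and 4.29, EHMT2 at 10.9 and 10.8, SETDB1 at 6.29 and 6.91 and SETDB2 at 3.71 and 3.44. The lower sum thus came from the SUV39H pair and is no fall of all 6 genes. Per kilobase of the longest coding transcript the sums were 289 and 426 for HP1 and 63.7 and 75.8 for the methyltransferases (siCHKA, then siNT), with CBX3 at 291 in siNT, so the sizes of the sums depend on the length used and siCHKA was lower with both. The makeup of the HP1 family shifted with the unequal falls. CBX5 made up 5.79% to 10.4% of HP1 reads per kilobase in siCHKA and 11.1% to 16.6% in siNT. CBX3 made up 66.3% ± 4.89 in siCHKA and 54.9% ± 5.04 in siNT, and the lowest siCHKA sample (60.9%) was just below the highest siNT sample (61.2%). CBX1 made up 25.8% ± 2.87 and 31.4% ± 2.80. Per kilobase of the longest coding transcript the mean shares of CBX5 were 5.38% in siCHKA and 9.84% in siNT, and those of SUV39H1 in the SUV39H pair were 10.2% and 29.8%.

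**Figure D2:**
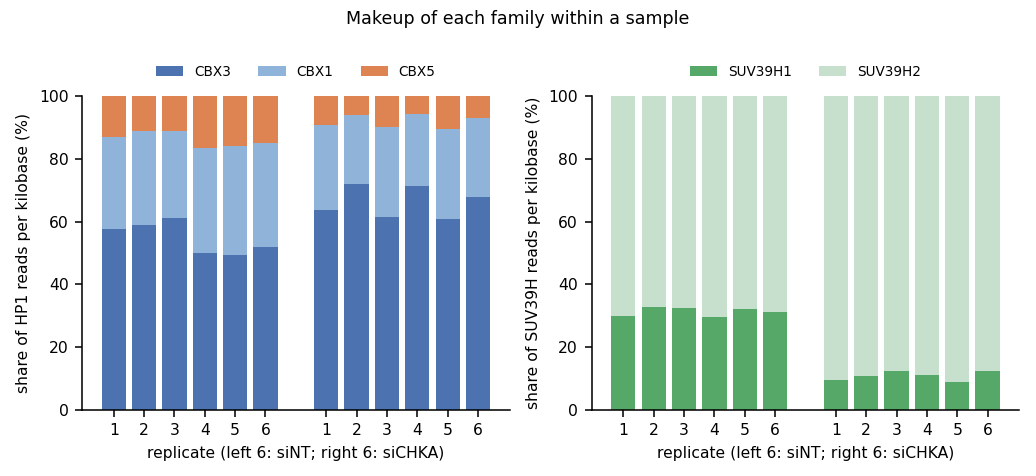
Share of each gene in the reads per kilobase of the HP1 family (left) and of the SUV39H pair (right), as percent per sample, with the 6 siNT samples on the left of each panel and the 6 siCHKA samples on the right. The SUV39H1 share is 8.81% to 12.4% in siCHKA and 29.7% to 32.7% in siNT, and the CBX5 share is lower in every siCHKA sample than in any siNT sample.

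The proteins that work with the H3K9 methyltransferases were covered by a list of 12 genes, of which 10 were tested; UHRF1 had no matching identifier and ATF7IP2 had too few reads. Of these, 7 fell and none rose, with a median log2 fold change of -0.23, beside 30.1% lower, 32.1% higher and a median of 0.03 over all tested genes. PRDM2, which encodes a further SET domain protein, was at 44.5 to 50.6 CPM in siCHKA and 65.4 to 70.5 in siNT (log2 fold change -0.50, SE 0.05, edgeR adjusted p = 4.92e-08). MORC2, an ATPase that works with the HUSH silencing complex, changed by -0.48 (adjusted p = 2.29e-05). TRIM28 (KAP1), which brings SETDB1 and HP1 to zinc finger proteins on DNA, changed by -0.31 (adjusted p = 4.42e-05), and CDYL, a chromodomain protein that binds EHMT2, by -0.29 (adjusted p = 1.56e-04). ATF7IP, the nuclear partner that stabilises SETDB1, was at a log2 fold change of 0.04 and did not pass the test. Of the SETDB1 partners named here, TRIM28 thus fell and ATF7IP was not called. The SETDB1 transcript was slightly higher, with a call that was lost in 7 of 16 alternatives.

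Among 12 partners and readers around HP1, 6 fell and 2 rose, with a median of -0.27, read against the same shares of all tested genes. CHAF1A, the large subunit of chromatin assembly factor 1, which deposits histones at the replication fork and binds HP1, was at 26.0 to 32.5 CPM in siCHKA and 76.8 to 89.3 in siNT, a log2 fold change of -1.54 (SE 0.06, edgeR adjusted p = 1.04e-12). Its partner subunit CHAF1B changed by -0.98 (adjusted p = 2.59e-10). LBR, the lamin B receptor that ties HP1-bound chromatin to the nuclear envelope, changed by -0.99 (adjusted p = 5.66e-12). SGO1, which protects centromeric cohesion, changed by -1.19 (adjusted p = 1.22e-10). The 2 that rose were KMT5B, an H4K20 methyltransferase that HP1 brings to heterochromatin, by 0.39 (adjusted p = 1.60e-04), and POGZ, an HP1-binding zinc finger protein, by 0.26 (adjusted p = 0.00193). ATRX, a remodeler of pericentromeric chromatin, was at 199 ± 30.3 CPM in siCHKA and 198 ± 35.8 in siNT.

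Of the 11 demethylases that remove H3K9 methyl groups, 3 fell, 3 rose and 5 did not pass the test, with a median of -0.15. These shares are near those over all tested genes (30.1% lower and 32.1% higher). KDM1A (LSD1), which removes mono- and dimethyl groups, was at 120 to 141 CPM in siCHKA and 165 to 173 in siNT (log2 fold change -0.37, edgeR adjusted p = 2.47e-06). PHF8 changed by -0.41 (adjusted p = 4.96e-06) and PHF2 by -0.18 (adjusted p = 0.00857). KDM7A was at 39.2 to 52.5 CPM in siCHKA and 20.9 to 35.2 in siNT, a log2 fold change of 0.77 (adjusted p = 1.54e-05). KDM4A and KDM4B, which act on the trimethyl mark that SUV39H1 places, changed by 0.36 (adjusted p = 4.95e-04) and 0.25 (adjusted p = 0.0077).

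Genes of germ cells that are silenced through H3K9 methylation in other cell types mostly had too few reads to be tested. Of 10 listed, 3 passed the filter. TDRD1 was lower by 0.95 on the log2 scale (0.636 ± 0.265 against 1.23 ± 0.195 CPM). It passed the filter through siNT (0.883 to 1.45 CPM) rather than siCHKA (0.392 to 1.13 CPM), so its fall is a description. TEX15 fell by 0.29 (edgeR adjusted p = 0.028), and SYCP3 was at 1.98 ± 0.570 against 2.10 ± 0.643 CPM. None of the 3 was called higher, beside 30.1% lower and 32.1% higher over all tested genes. With so few genes, nothing is read from these calls. Among the 7 untested genes, MAEL had the most reads, at 0.305 ± 0.183 CPM in siCHKA and 0.167 ± 0.132 in siNT. DAZL, HORMAD1 and SYCE1 had no read in any sample, and the calls of TDRD1 and TEX15 rested on part of the samples: 0 of the list were called without siCHKA replicates 2, 4 and 6. Levels of the methyl mark itself were not measured.

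All 15 proliferation genes examined fell, with a median log2 fold change of -1.47, where 30.1% of all tested genes were lower. The 4 with the smallest p were RRM2 (-2.62), TYMS (-1.63), TOP2A (-1.51) and MCM3 (-1.47), which supply deoxynucleotides, untangle DNA and load onto replication origins. Their summed level was 1512 to 1587 CPM in siCHKA and 3809 to 4220 CPM in siNT, and its part in the values of the 9 genes and of CHAF1A and SGO1 was not tested. Fewer cells of a kind and less RNA per cell cannot be told apart in these bulk samples.

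**Figure D3:**
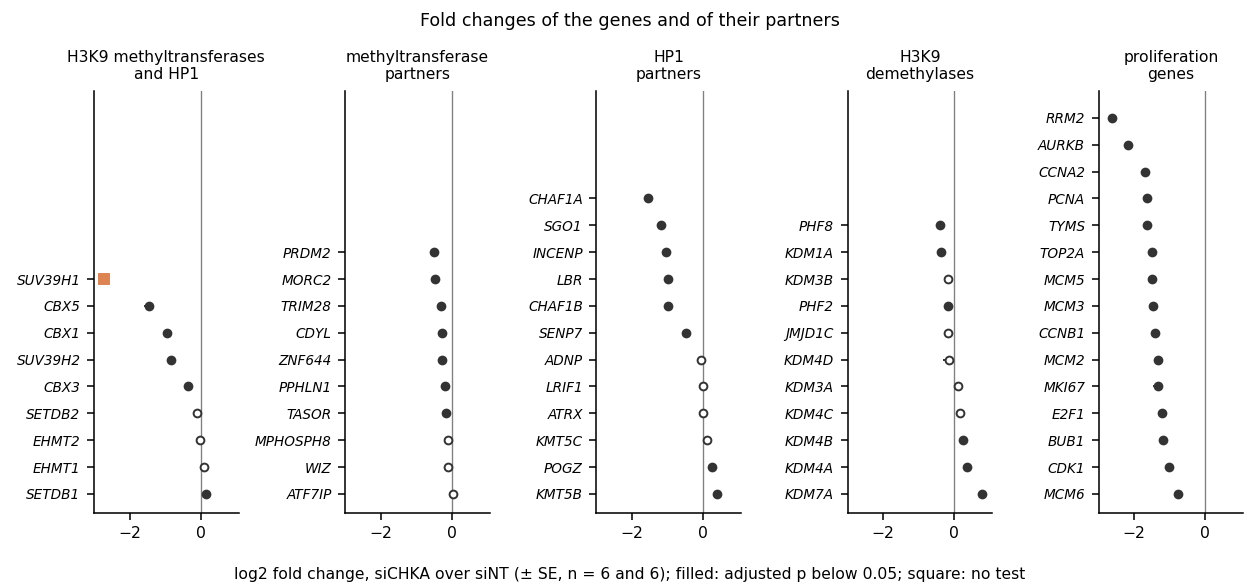
Log2 fold change of siCHKA over siNT with its SE (n = 6 and 6) for the 9 genes and the tested genes of 4 lists. Filled circles had an edgeR adjusted p below 0.05, open circles did not, and the orange square is SUV39H1, for which no test is given; its value of -2.73 is close to that of RRM2 at -2.62, while the methyltransferase partners lie between -0.50 and 0.04.

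The 5 genes whose values over the 12 samples were nearest to those of SUV39H1 (siNT mean of at least 10 CPM, each gene as log2 CPM less its siNT mean, likeness as the root mean square difference) were SEC23A, RRM2, C11orf24, STK40 and KCTD20. The differences ran from 0.14 to 0.22, beside a median of 1.87 over the 9508 genes compared. SEC23A, which encodes a COPII coat protein, was at 41.7 ± 1.98 CPM in siCHKA and 275 ± 10.3 in siNT, and RRM2, the small subunit of ribonucleotide reductase, at 46.6 ± 3.51 and 286 ± 24.6. C11orf24 was at 8.68 ± 1.09 and 52.6 ± 3.44 CPM, STK40 at 14.2 ± 0.936 and 77.9 ± 3.99, and KCTD20 at 38.6 ± 4.38 and 213 ± 7.32. C11orf24 lies on the same chromosome as the siRNA target, at chr11:68261338-68272001 beside CHKA at chr11:68052859-68121444. Like SUV39H1 and CBX5, all 5 held at least 1 of the words GCCAGAT and TGCCCTT in the 3′ UTR, beside 21.9% of all genes with one: SEC23A and C11orf24 held GCCAGAT once, KCTD20 held it 3 times, STK40 held TGCCCTT 3 times, and RRM2 held each once. Since these genes were chosen for their fall and the words were picked in the same data, nothing is tested by this.

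**Figure D4:**
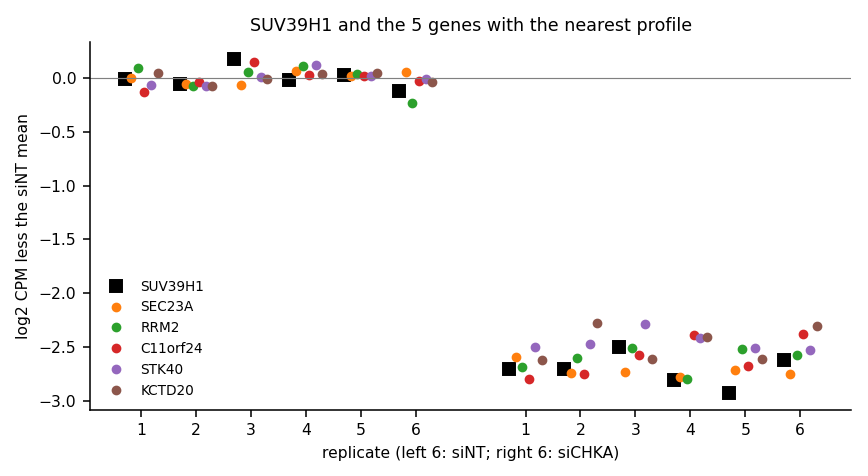
Log2 CPM less the siNT mean in each of the 12 samples for SUV39H1 (black squares) and the 5 genes with the nearest values (circles, set side by side within a replicate). All 6 genes lie near 0 in siNT and between about -2 and -3 in siCHKA, as the rule that chose them asks.

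The genes next to the 9 on the chromosome were looked at as well. Of 17 nearest tested protein-coding neighbours, 9 fell, 5 rose and 3 did not pass the test, beside 30.1% lower and 32.1% higher over all tested genes. HDAC6, the neighbour of SUV39H1 at 92360 bases, was at 48.2 CPM in siCHKA and 29.1 in siNT, a log2 fold change of 0.73 (edgeR adjusted p = 1.09e-07), and WAS on its other side was at 1.81 and 1.34 CPM. SNX10 beside CBX3 changed by 1.41 (adjusted p = 6.79e-11). HNRNPA1, which starts 59 bases from CBX5 in the other direction, was at 405 CPM in siCHKA and 610 in siNT (-0.59, adjusted p = 1.19e-07). The neighbours of EHMT2, SLC44A4 and C2, changed by 0.59 (adjusted p = 1.83e-08) and 0.65 (adjusted p = 0.0242), with C2 below 1 CPM in both groups.

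Across 16 alternatives (other normalization, test, filters, replicates and count files), the log2 fold change of SUV39H1 stayed between -2.78 and -2.69 and those of SUV39H2 and CBX1 between -0.94 and -0.73 and between -1.08 and -0.81. CBX3 lay between -0.51 and -0.26 and CBX5 between -1.78 and -1.18. These 4 tested genes were called lower under each of the 16.

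**Figure D5:**
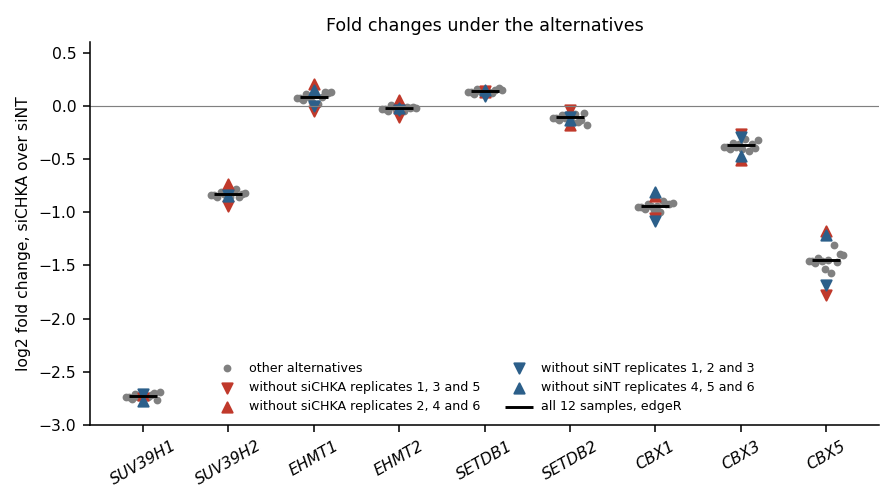
Log2 fold change of each of the 9 genes with all 12 samples (black line), without 3 of the 6 siCHKA samples (red triangles), without 3 of the 6 siNT samples (blue triangles) and under the other alternatives (grey points). The spread is widest for CBX5, from -1.78 to -1.18, and narrow for SUV39H1, from -2.78 to -2.69.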

How the data were processed

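RNA of 12 C4-2 samples was analysed (6 siCHKA, 6 siNT). The authors aligned single-end reads to GRCh37 with TopHat 2.0.4 and deposited unnormalized HTSeq 0.5.3p9 read counts per Ensembl gene, in 4 count files per sample. The counting left out reads with several alignments (26.1% to 30.6% of the entries tallied) or on overlapping genes (2.83% to 2.93%). A read with several alignments can enter that tally more than once, so these are not shares of reads. Version numbers are from the submitters' processing notes. The labels name miRNeasy RNA from flow-sorted cells and the methods another kit. The 4 files differed by no more than sampling noise and were summed. Of 54127 identifiers, 82.8% matched GENCODE 44 (GRCh38), the source of names, coordinates and lengths. The summed counts entered edgeR (version 4.0.16, under R 4.3.3) with TMM scaling and its filterByExpr filter (quasi-likelihood test without covariates, Benjamini-Hochberg over all 14501 tested genes, called below 0.05), checked on simulated counts.

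Groups came from the labels. Floors of 3 counts cover counting error only. The 9 genes and all lists were chosen with earlier results of these data known. Named genes were the 9 genes and CHKA, at most 4 called genes with the smallest p per list and direction, 5 genes nearest to SUV39H1, and called neighbours that changed by at least 0.5 (log2); ATF7IP, ATRX, SYCP3, WAS, the genes named as unread or unmatched and the genes sharing exons were added after their values were seen. Alternatives were RLE, DESeq2 1.42.0, other filters, a replicate block, fewer replicates and 1 count file per sample; leaving out siNT replicates 1 to 3 or 4 to 6, and the transcript lengths, were added after seeing the data.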

Additional observations from a re-analysis of the deposited data

How the results depend on the processing

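Without a filter on low counts, with 1 count file per sample or without siNT replicates 1, 2 and 3, 0 of the 9 genes were called higher (SETDB1 at adjusted p = 0.199, 0.0895 and 0.163 by edgeR); leaving out each replicate number in turn gave 0 to 1. Germline genes called numbered 1 with at least 10 counts in every sample and without siNT replicates 4, 5 and 6, and 0 without siCHKA replicates 2, 4 and 6 and with 1 count file; leaving out a replicate number gave 1 to 2. EHMT1 turned to -0.05 without siCHKA replicates 1, 3 and 5, and EHMT2 to 0.01 with at least 10 counts in every sample and to 0.06 without siCHKA replicates 2, 4 and 6. The cause was not tested. Of the 8 genes without SUV39H1, 4 were called lower in each of the 16 alternatives. All genes called lower numbered 3467 to 4686 and higher 3413 to 4781. No alternative moved the median of all genes by over 0.1 (log2).

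Replicate numbers were not treated as pairs in the main test. The correlation of deviations between samples with the same number was -0.396 to 0.321. It was not set beside that of samples with different numbers, so whether the numbers pair the samples is not settled by it. With the replicate number as a block, 8767 genes were called in place of 9021, 4 of the 8 genes without SUV39H1 were lower and 1 was higher, as without it, and CHKA was at -3.90; no call of the 8 genes changed.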
